A study of Mus musculus with 6 samples.

Results

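The muscle miRNAs described here are 7 mature microRNA (miRNA) names, mmu-miR-1a-3p, mmu-miR-133a-3p, mmu-miR-133b-3p, mmu-miR-206-3p, mmu-miR-208a-3p, mmu-miR-208b-3p and mmu-miR-499-5p, written without the species prefix from here on and chosen by name from the 1907 names in the deposited count files. They were read in small RNA libraries of primary dermal fibroblasts from newborn mouse skin, grown for 6 days and taken at passage 1. In 3 libraries (caNrf2, genotype Col1a2Cre-caNrf2) fibroblasts expressed a constitutively active mutant of Nrf2, a regulator of genes for antioxidant defence and detoxification, which depended on Cre recombinase driven by the fibroblast-active Col1a2 promoter. The other 3 libraries (ctrl, genotype Col1a2Cre-wt) carried the same Cre without the mutant. The strain of both groups was mixed, C57Bl/6 and FVB/N in equal parts. The design gives each library its own mouse, and neither the labels nor the design name a sorting step. Library totals lay between 13733970 and 28237159 counts in caNrf2 and between 10443268 and 20595024 counts in ctrl, and all 6 column headers carry the same run and lane name. Nrf2 is not an miRNA, so these files hold no check of the transgene.

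The muscle miRNAs, often called myomiRs, are made at high levels in skeletal muscle or heart and are used as marks of the muscle lineage. The genes of miR-1 and miR-133a lie side by side and are transcribed together, and so are those of miR-206 and miR-133b. In muscle precursor cells miR-1 and miR-206 are known to favour differentiation and miR-133 to favour proliferation, while miR-208a, miR-208b and miR-499 lie inside myosin heavy chain genes and are known for their part in the choice of myosin and fibre type.

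The mature sequences of 5 of the 7 members were found in the RefSeq table (build GRCm38.p6). They are shown because the seed, bases 2 to 8 and in capitals here, sets which messages an miRNA pairs with, and because reads of near-identical members are hard to tell apart.
miR-206-3p: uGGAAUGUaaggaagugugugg
miR-133b-3p: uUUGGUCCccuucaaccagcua
miR-208a-3p: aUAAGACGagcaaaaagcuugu
miR-208b-3p: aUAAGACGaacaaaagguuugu
miR-499-5p: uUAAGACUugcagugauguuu
miR-208a-3p and miR-208b-3p share their seed and differ by 3 substitutions, G10A, A16G and C18U, counted from the 5′ end of miR-208a-3p. Within the first 8 bases miR-499-5p differs from miR-208b-3p by A1U and G8U, so its seed departs from theirs in its last base. The seed of miR-206-3p was found in 2 other mature sequences of the table, miR-6349 and miR-6382, both with 0 counts in all 6 libraries, and those of miR-133b-3p and miR-499-5p in none. As background, miR-1a-3p carries the same seed as miR-206-3p, and miR-133a-3p differs from miR-133b-3p only in its final base.

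The precursors fall into clusters and hosts (coordinates on mm10, GENCODE M21). Mir206 (chromosome 1, 20679010 to 20679082) and Mir133b (chromosome 1, 20682769 to 20682887) lie 3686 bases apart on the plus strand. Both lie inside the long noncoding RNA gene Gm28653 and overlap its exons. Mir1a-1 (chromosome 2, 180389048 to 180389124) and Mir133a-2 (chromosome 2, 180398379 to 180398482) lie 9254 bases apart on the plus strand, with no annotated host gene around either. miR-1a-3p and miR-133a-3p also have precursors elsewhere, not analysed here, and their counts do not tell the precursors apart. Mir208a (chromosome 14, 54949060 to 54949142) lies in an intron of Myh6, Mir208b (chromosome 14, 54975700 to 54975776) in an intron of Myh7 and Mir499 (chromosome 2, 155622880 to 155622958) in an intron of Myh7b, each on its host's strand. The hairpins of the miR-206 and miR-133b cluster are given with both mature arms in capitals, since both arms of each were counted.
Mir206: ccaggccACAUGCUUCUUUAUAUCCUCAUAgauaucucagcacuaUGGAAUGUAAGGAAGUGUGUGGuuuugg
Mir133b: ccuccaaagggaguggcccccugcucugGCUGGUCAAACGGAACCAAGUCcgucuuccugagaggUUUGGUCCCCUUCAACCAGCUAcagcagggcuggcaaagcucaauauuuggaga

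Of the 7 muscle miRNAs, 5 had enough counts to be tested, miR-133a-3p, miR-133b-3p, miR-206-3p, miR-208b-3p and miR-499-5p, and all 5 were higher in caNrf2 fibroblasts. The rise of miR-133b-3p may not be separate from that of miR-133a-3p, whose mature sequence differs only in its final base. The rises were between 1.59-fold for miR-133b-3p and 2.30-fold for miR-499-5p, and for each of the 5 the caNrf2 and ctrl libraries did not overlap. Of all 697 tested miRNAs, 14.1% passed as higher and 11.6% as lower (edgeR quasi-likelihood test, Benjamini-Hochberg adjusted p under 0.05), and 23.7% had all caNrf2 libraries above all ctrl libraries. The log2 fold change had a median of 1.05 over the 5 tested muscle miRNAs and 0.03 over all tested miRNAs. The filter asked for 0.54 CPM (counts scaled by library size) in 3 libraries, and each of the 5 exceeded that in every library of both groups. The other 2 members, miR-1a-3p and miR-208a-3p, had at most 9 counts in any library and were not tested. In bulk RNA, more cells holding an miRNA and more of it per cell cannot be told apart.

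miR-133a-3p, which restrains muscle differentiation genes such as that of serum response factor, was the dominant muscle miRNA. It had 534, 595 and 712 CPM in caNrf2 libraries 1, 2 and 3, against 330, 407 and 377 CPM in ctrl libraries 1, 2 and 3. The lowest caNrf2 library thus stood above the highest ctrl library. These levels rested on 7614 to 19888 counts in the caNrf2 libraries and 3426 to 7630 counts in the ctrl libraries. The log2 fold change was 0.72 ± 0.12 (SE, edgeR adjusted p = 0.00145, n = 3 per group), a 1.65-fold rise. By mean level it ranked at place 104 of the 1907 names, and it held 94.5% to 95.6% of the counts of the 7 members in every library.

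miR-1a-3p, which in muscle fibres is an abundant miRNA made from the same transcripts as miR-133a, was almost absent. It had 1, 9 and 6 counts in caNrf2 libraries 1, 2 and 3, against 5, 2 and 2 counts in ctrl libraries 1, 2 and 3. The groups overlapped, and the ratio of the summed counts per total was 1.28 (exact 95% interval 0.531 to 3.28, counting error only), so no difference was detectable at this depth. With no filter on low counts its log2 fold change was 0.24 ± 0.73 (SE, edgeR adjusted p = 0.896).

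The partners of the miR-1a and miR-133a clusters were therefore far apart in level. miR-1a-3p made up 0.0382% of the summed counts of both in caNrf2 fibroblasts (16 of 41844, exact 95% interval 0.0219% to 0.0621%) and 0.0507% in ctrl fibroblasts (9 of 17757, 0.0232% to 0.0962%). The intervals overlap, and no test was run on this share. Ctrl library 1 alone held 5 of the 9 ctrl counts. The related name miR-1b-3p was as scarce, with 21 counts over the caNrf2 libraries and 9 over the ctrl libraries.

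**Figure D1:**
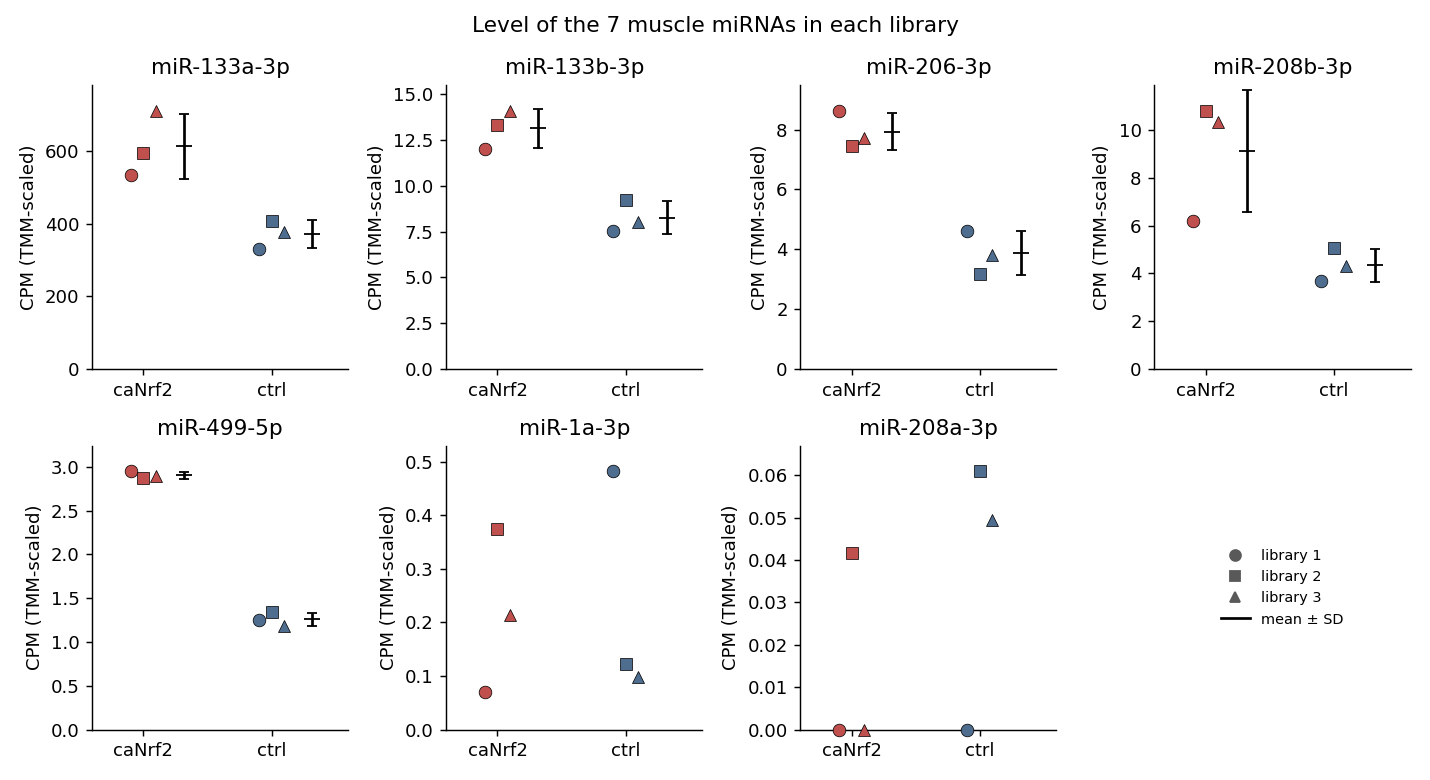
Level of each of the 7 muscle miRNAs in every library, in TMM-scaled CPM on a linear axis from 0. Points are libraries, with circles, squares and triangles for libraries 1, 2 and 3, and the bar at the side of each group is the mean ± SD (n = 3), left out for miR-1a-3p and miR-208a-3p. In the 5 panels from miR-133a-3p to miR-499-5p every caNrf2 point lies above every ctrl point, while the groups overlap for miR-1a-3p and miR-208a-3p.

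miR-206-3p, the member known from skeletal muscle rather than heart, rose 2.07-fold from a low level. It had 8.63, 7.44 and 7.73 CPM in caNrf2 libraries 1, 2 and 3, against 4.62, 3.16 and 3.80 CPM in ctrl libraries 1, 2 and 3. All 3 caNrf2 libraries were above all 3 ctrl libraries, and library 1 was the highest of each group. Its counts were 123, 179 and 216 in caNrf2 libraries 1, 2 and 3, against 48, 52 and 77 in ctrl libraries 1, 2 and 3. The log2 fold change was 1.05 ± 0.16 (SE, edgeR adjusted p = 9.45e-04, n = 3 per group).

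miR-133b-3p, the cluster partner of miR-206-3p, had 12.0, 13.3 and 14.1 CPM in caNrf2 libraries 1, 2 and 3, against 7.51, 9.25 and 8.05 CPM in ctrl libraries 1, 2 and 3. The groups did not overlap, and the log2 fold change was 0.67 ± 0.15 (SE, edgeR adjusted p = 0.00844, n = 3 per group). Within each library miR-206-3p was the less abundant of the pair, with 0.719, 0.558 and 0.548 counts per miR-133b-3p count in caNrf2 libraries 1, 2 and 3, against 0.615, 0.342 and 0.472 in ctrl libraries 1, 2 and 3. On the log2 scale, with 0.5 added to each count, the ratio averaged -0.73 ± 0.22 in caNrf2 and -1.10 ± 0.42 in ctrl fibroblasts (SD, n = 3 each). The difference of 0.38 lay within the spread of the libraries (two-sided exact permutation p = 0.3, 0.5 adjusted over 4 such tests, where 3 against 3 libraries cannot go below 0.1). It ranged from 0.16 without ctrl library 2 to 0.58 without ctrl library 1, so a larger rise of miR-206-3p than of its partner was not shown.

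The levels of miR-133b-3p followed those of miR-133a-3p closely. miR-133b-3p counts were 2.25%, 2.24% and 1.98% of the miR-133a-3p counts in caNrf2 libraries 1, 2 and 3, against 2.28%, 2.27% and 2.14% in ctrl libraries 1, 2 and 3. The log2 ratio averaged -5.54 ± 0.10 in caNrf2 and -5.48 ± 0.05 in ctrl fibroblasts (SD, n = 3 each), a difference of -0.05 (two-sided exact permutation p = 0.5, 0.5 adjusted), and without caNrf2 library 3 its sign turned, to 0.00756. Both mature sequences are alike but for the final base, and how the counting assigned reads that fit both names is not given in the sources used here. The separate level of miR-133b-3p is therefore uncertain, and whether miR-133a-3p reads enter it was not tested. Against miR-133a-3p, miR-206-3p had a log2 ratio of -6.26 ± 0.29 in caNrf2 and -6.59 ± 0.43 in ctrl fibroblasts (SD, n = 3 each), a difference of 0.32 within the spread of the libraries (two-sided exact permutation p = 0.4, 0.5 adjusted).

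**Figure D2:**
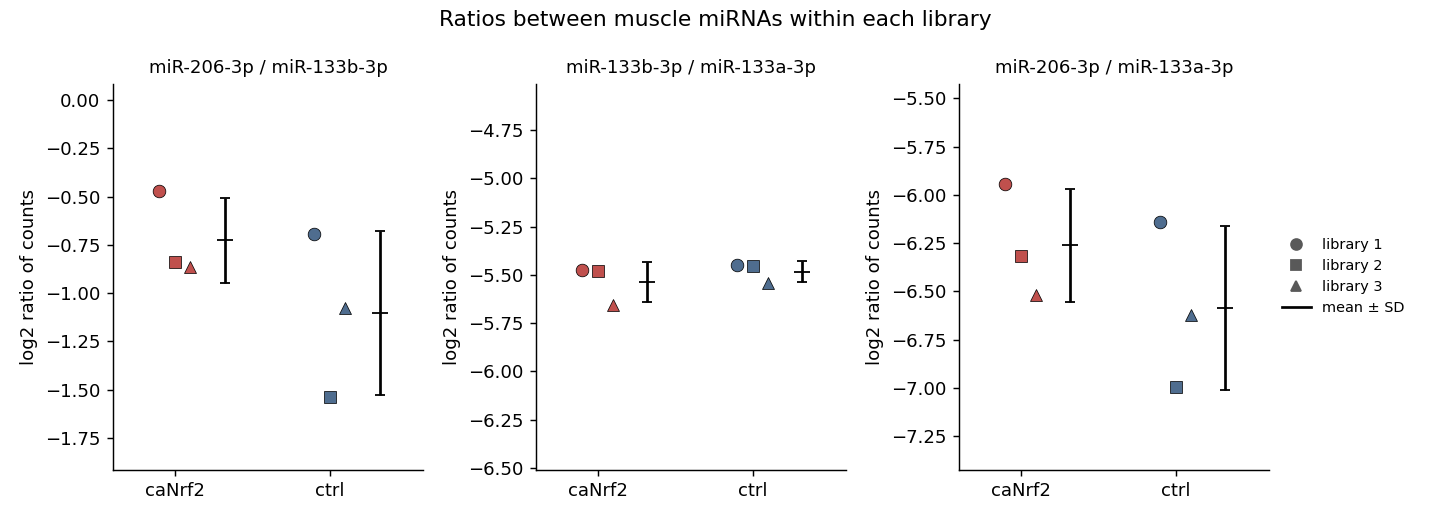
Log2 ratios of the counts of 2 muscle miRNAs within a library, with 0.5 added to each count, for miR-206-3p to miR-133b-3p, miR-133b-3p to miR-133a-3p and miR-206-3p to miR-133a-3p. Points are libraries, bars are the mean ± SD (n = 3), and the 3 vertical axes span the same width. The caNrf2 and ctrl points overlap in all 3 panels, and the miR-133b-3p to miR-133a-3p ratio spreads least, with an SD of 0.10 in caNrf2 and 0.05 in ctrl.

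The opposite arms of the miR-133 hairpins were also counted. miR-133b-5p, which lies in capitals first in the Mir133b hairpin above, had 4.91, 4.90 and 6.69 CPM in caNrf2 libraries 1, 2 and 3, against 2.89, 2.92 and 2.67 CPM in ctrl libraries 1, 2 and 3. It rose 1.97-fold without overlap of the groups (log2 fold change 0.98 ± 0.17, SE, edgeR adjusted p = 0.00246, n = 3 per group). For each count of this arm there were 2.11 to 3.17 counts of miR-133b-3p over the 6 libraries. miR-133a-5p rose by 0.58 ± 0.18 on the log2 scale (SE, edgeR adjusted p = 0.0376), and its 3p arm was 113 to 159 times as abundant. The miR-133a-5p call was lost with RLE size factors, in DESeq2, in thinned counts and without any library other than ctrl library 2, with adjusted p from 0.0518 to 0.202.

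Of 11 other arms and copies of muscle precursors, these 2 were the only ones with enough counts to be tested. miR-206-5p had 15 counts over the caNrf2 libraries and 5 over the ctrl libraries, a ratio per total of 2.15 (exact 95% interval 0.744 to 7.58, counting error only). miR-133c, miR-1a-2-5p and miR-208b-5p had 0 counts in all 6 libraries, where 3 counts correspond to 0.107 to 0.289 CPM. The remaining names, miR-1a-1-5p, miR-1b-3p, miR-1b-5p, miR-208a-5p and miR-499-3p, had at most 10 counts in any library.

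Of the members hosted by myosin genes, miR-208b-3p rose 2.10-fold and miR-499-5p 2.30-fold, and miR-208a-3p was too scarce to be measured. miR-208b-3p, from the intron of Myh7, the slow and cardiac beta myosin heavy chain, had 6.17, 10.8 and 10.3 CPM in caNrf2 libraries 1, 2 and 3, against 3.66, 5.05 and 4.30 CPM in ctrl libraries 1, 2 and 3. caNrf2 library 1 lay well below the other two of its group and still above the highest ctrl library. The log2 fold change was 1.07 ± 0.22 (SE, edgeR adjusted p = 0.00493, n = 3 per group), and without caNrf2 library 1 it was 1.27.

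miR-499-5p, from Myh7b, had 2.95, 2.87 and 2.90 CPM in caNrf2 libraries 1, 2 and 3, against 1.25, 1.34 and 1.18 CPM in ctrl libraries 1, 2 and 3. These values come from 42, 69 and 81 counts in caNrf2 libraries 1, 2 and 3, against 13, 22 and 24 counts in ctrl libraries 1, 2 and 3. The groups did not overlap. The libraries of each group lay close together, but with counts this low that closeness is no measure of precision. The log2 fold change was 1.20 ± 0.18 (SE, edgeR adjusted p = 9.97e-04, n = 3 per group), the largest of the 5 tested members in the main fit. With every library thinned to 10443268 counts the log2 fold change was 0.93 and the call was lost (adjusted p = 0.0654). In those thinned counts miR-208b-3p (1.04) and miR-206-3p (1.02) were higher. Without caNrf2 library 1, miR-208b-3p was also higher (1.27 against 1.19).

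miR-208a-3p, from the intron of the cardiac alpha myosin gene Myh6, had 0, 1 and 0 counts in caNrf2 libraries 1, 2 and 3, against 0, 1 and 1 counts in ctrl libraries 1, 2 and 3. Both groups lay under the limit of 3 counts, so no fold is given. Its neighbour miR-208b-3p had 637 counts over the caNrf2 libraries and 208 over the ctrl libraries. The hairpins of both lie 26557 bases apart.

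**Figure D3:**
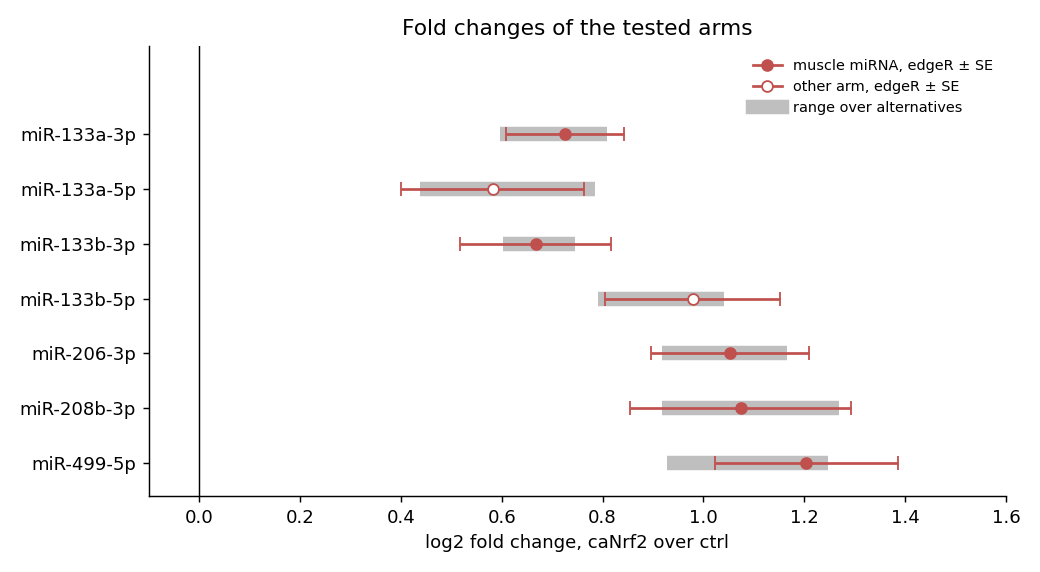
Log2 fold changes, caNrf2 over ctrl, of the 5 tested muscle miRNAs (filled) and the 2 tested opposite arms of miR-133 (open). Points and bars are edgeR estimates ± SE, and grey bands span all alternative settings. All 7 bands lie above 0, from 0.44 for miR-133a-5p to 1.27 for miR-208b-3p.

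By mean CPM the members ran in the order miR-133a-3p, miR-133b-3p, miR-208b-3p, miR-206-3p, miR-499-5p, miR-1a-3p and miR-208a-3p. These are counts per mature miRNA of 21 to 22 bases for the 5 members with a sequence, and differences in ligation or sequencing efficiency between miRNAs are not removed from them. miR-208b-3p and miR-206-3p, next to each other in that order, overlapped in both groups. miR-208b-3p and miR-133b-3p did not overlap in either group, nor did miR-206-3p and miR-499-5p. Summed, the 7 members had 564, 630 and 747 CPM in caNrf2 libraries 1, 2 and 3, against 347, 426 and 394 CPM in ctrl libraries 1, 2 and 3 (two-sided exact permutation p = 0.1, the smallest possible, 0.4 adjusted over 4 tests). Without miR-133a-3p the difference of the means was 15.3 CPM in place of 258 CPM.

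**Figure D4:**
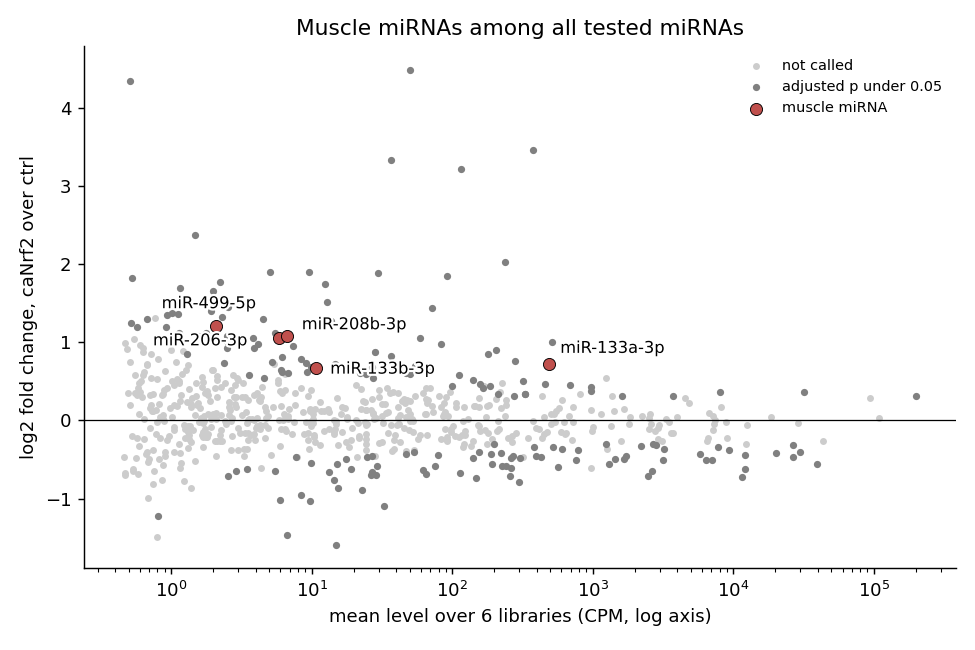
Log2 fold change, caNrf2 over ctrl, against the mean level in CPM (log axis) of all 697 tested miRNAs. Dark grey points passed at an adjusted p under 0.05, light grey points did not, and red points are the 5 tested muscle miRNAs. The red points lie between 0.67 and 1.20, and 4 of them lie at or below 10.7 CPM while miR-133a-3p lies at 493 CPM.

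The muscle miRNAs did not have the largest changes of the data. Ordered by log2 fold change from the highest, miR-499-5p stood at place 30 of the 697 tested miRNAs, miR-208b-3p at 38, miR-206-3p at 40, miR-133a-3p at 74 and miR-133b-3p at 84. Likeness of pattern was measured as the root mean squared difference of log2 CPM, each miRNA centred on its own mean over the 6 libraries, among 369 other miRNAs of at least 10 CPM. miR-3068-3p was closest to miR-133a-3p (0.10), to miR-133b-3p (0.05) and to miR-208b-3p (0.25). Next to miR-133a-3p came miR-486b-5p and miR-486a-5p, both at 0.14. miR-671-5p was closest to miR-206-3p (0.12), followed by miR-335-5p (0.12) and miR-29c-3p (0.14), and miR-877-5p was closest to miR-499-5p (0.14), followed by miR-29c-3p (0.14) and miR-149-5p (0.16). Next to miR-133b-3p came miR-326-3p (0.08) and miR-744-3p (0.09), and next to miR-208b-3p miR-338-3p (0.28) and miR-326-3p (0.28). Among the members, miR-133a-3p and miR-133b-3p were closest to each other (0.08), and miR-206-3p and miR-208b-3p were farthest apart (0.43).

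Of 22 other miRNAs with a reported role in muscle differentiation, 20 were tested, of which 6 rose, 5 fell and 9 did not pass, and their median was 0.00 on the log2 scale. The count of falls was 3 without caNrf2 library 1, without caNrf2 library 3 or without ctrl library 3, and 4 to 7 rose over the 6 left-out libraries. The share called is above the 25.7% of all tested miRNAs called in either direction, and the calls point both ways. The list is richer in abundant miRNAs, with 18 of its 20 tested names at a mean of at least 10 CPM. Of the 697 tested miRNAs, 369 outside the members reached that level. The 2 shares were not compared at equal level. miR-29c-3p, which in muscle is known to favour differentiation, had 107, 115 and 109 CPM in caNrf2 libraries 1, 2 and 3, against 58.9, 50.8 and 59.3 CPM in ctrl libraries 1, 2 and 3 (log2 fold change 0.97 ± 0.11, SE, edgeR adjusted p = 2.28e-04). miR-486a-5p, a muscle-enriched miRNA from the Ank1 locus that is also abundant in red blood cells, rose 1.38-fold (0.47 ± 0.09, SE, edgeR adjusted p = 0.00469). miR-486b-5p has the identical sequence, and the ratio of the counts of both names was 2.85 to 2.97 in the 6 libraries, so its rise of 0.46 is not a separate observation. miR-128-3p, best known from neurons, rose by 0.41 ± 0.09 on the log2 scale (SE, edgeR adjusted p = 0.00551).

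Among the falls of that list were miR-322-5p and miR-503-5p, known to promote cell cycle exit in differentiating muscle cells. miR-322-5p had 1993, 1720 and 1865 CPM in caNrf2 libraries 1, 2 and 3, against 3150, 2777 and 3240 CPM in ctrl libraries 1, 2 and 3 (log2 fold change -0.72 ± 0.09, SE, edgeR adjusted p = 3.61e-04). miR-503-5p, from the same cluster on the X chromosome, changed by -0.96 ± 0.15 on the log2 scale (SE, edgeR adjusted p = 0.00129). In both cases every caNrf2 library was below every ctrl library.

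The miR-143 and miR-145 cluster, abundant in smooth muscle, other contractile cells and fibroblasts, had smaller log2 fold changes than the muscle miRNAs, a difference that was not tested. All 4 of its arms had every caNrf2 library above every ctrl library, as did 23.7% of all tested miRNAs. The 4 arms share a cluster and may not be separate observations. Only miR-145a-3p passed the threshold (log2 fold change 0.31 ± 0.09, SE, edgeR adjusted p = 0.0292). That call was lost with RLE size factors, in DESeq2, with no filter and without caNrf2 library 2 or 3 or ctrl library 3 (adjusted p from 0.0556 to 0.146). miR-143-3p (0.28 ± 0.09, SE, edgeR adjusted p = 0.0512), miR-143-5p (0.35 ± 0.12, 0.0625) and miR-145a-5p (0.31 ± 0.11, 0.0602) did not pass. The miR-143-3p call was gained with library totals, in limma-voom, with no filter, with a mean of at least 10 CPM, with a replicate block, in thinned counts and without ctrl library 1 (adjusted p from 0.00696 to 0.0467). Over all alternatives 0 to 4 of the 4 arms were called.

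Some markers of blood and of neural and glial cells rose along with the muscle miRNAs. The part of other cell types in the rises of the muscle miRNAs was not tested. Of all tested miRNAs, 14.1% passed as higher. Of 6 blood markers 3 rose (miR-142a-3p, miR-142a-5p and miR-223-3p), and the list summed to 157 to 234 CPM in caNrf2 against 37.0 to 70.7 CPM in ctrl libraries. Most of that sum was miR-142a-5p, with a mean of 143 CPM in caNrf2 and 39.6 CPM in ctrl. The other 3 did not pass: the red cell miRNA miR-144-3p had every caNrf2 library below every ctrl library (log2 fold change -0.998, edgeR adjusted p = 0.0873), miR-150-5p was at -0.10 and miR-451a at 0.48. Of 6 neural and glial markers 4 of the 5 tested rose, with sums of 836 to 999.8 CPM in caNrf2 against 222 to 241 CPM in ctrl libraries. The gap between these sums was mostly miR-138-5p, with a mean of 694 CPM in caNrf2 and 63.2 CPM in ctrl. Without it, an exclusion chosen after its values were seen, the sums were 226 to 233 CPM in caNrf2 and 161 to 175 CPM in ctrl. The other 3 that rose did so by 0.41 (miR-128-3p), 0.60 (miR-338-3p) and 0.68 (miR-9-5p) on the log2 scale, and miR-219a-5p was at -0.01. Without caNrf2 library 2 or 3 or ctrl library 1, 2 of the markers were called. In that list miR-124-3p was at 0 in caNrf2 library 1 and had at most 8 counts elsewhere. None of the 6 epithelial or 2 endothelial markers passed in the main edgeR fit (1 and 0 at an unadjusted p under 0.05). In both DESeq2 and limma-voom 1 and 0 were called. In edgeR 1 epithelial marker was called with library totals, with a replicate block and without caNrf2 library 1 or ctrl library 1. With no filter 2 were called. The epithelial sums were 1573 to 2074 CPM in caNrf2 against 1011 to 1820 CPM in ctrl libraries. The endothelial sums were 147 to 170 CPM in caNrf2 against 116 to 165 CPM in ctrl libraries. The 8 fibroblast and mesenchymal markers were present in every library. They summed to 377923 to 411346 CPM in caNrf2 and 369582 to 389528 CPM in ctrl. Of them 1 rose and 5 fell, where 11.6% of all tested miRNAs passed as lower. The rise, of miR-22-3p, was lost with RLE size factors, and none of the 8 rose without any one library other than ctrl library 1. miR-22-3p made up 51.3% of the mean sum. Without it, an exclusion chosen after its values were seen, the sums were 157528 to 193055 CPM in caNrf2 and 194180 to 209715 CPM in ctrl. No muscle protein gene is measured in small RNA counts, so the muscle miRNAs could not be set against messages of muscle cells.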

How the data were processed

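The deposited files hold raw counts of reads per mature miRNA name, 1 file per library, with 1907 names. The submitters' processing notes name cutadapt, Bowtie, featureCounts, edgeR and CASAVA 1.8, and mm10 as the build, with no roles or settings. How reads that fit several names were treated, which annotation release was used and whether molecular identifiers existed is not given in the sources used here, so intervals cover counting error only. No read was counted for 488 names.

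Of the 1907 names, the 697 that passed filterByExpr at a minimum count of 10 were fitted together in R 4.3.3. The fit used edgeR's quasi-likelihood test (version 4.0.16, group alone in the model, TMM scaling). Benjamini-Hochberg adjustment ran over the 697 tested miRNAs, at a threshold of 0.05. SEs were derived from the F statistic, and CPM values are TMM-scaled. Ratios and sums were compared by two-sided exact permutation over 20 assignments. Intervals at 95% are Clopper-Pearson. Alternatives were RLE size factors, library totals, DESeq2 1.42.0, limma-voom (limma 3.58.1), other filters, thinning, a replicate block and leaving out each library, with, for ratios and sums, nothing added to the counts, other CPM scalings and leaving out miR-133a-3p. The edgeR, DESeq2, limma-voom and permutation tests were tested on simulated data.

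Named were the 7 members, their other arms, up to 6 members of the muscle differentiation list by smallest p, the contractile list, and for each called member the 3 most alike miRNAs. Cell type markers were named besides. The members and lists were chosen with earlier results of these data known. Within each group no library was a copy of another: between replicates the chi-square per degree of freedom was at least 112.7.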

Additional observations from a re-analysis of the deposited data

How the results depend on the processing

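All 5 called muscle miRNAs kept a positive log2 fold change in every alternative, and 5 were called in each except the following. With a mean of at least 10 CPM required, 2 were called (miR-133a-3p and miR-133b-3p), since the other 3 were not tested. In thinned counts 4 were called, and miR-499-5p was not (log2 fold change 0.93, adjusted p = 0.0654). Leaving out each library gave log2 fold changes of 0.60 to 0.81 for miR-133a-3p, 0.60 to 0.75 for miR-133b-3p, 0.92 to 1.17 for miR-206-3p, 0.92 to 1.27 for miR-208b-3p and 1.15 to 1.25 for miR-499-5p, all called, with miR-133b-3p nearest the threshold (adjusted p up to 0.0483). The count over all miRNAs was 179, with 126 to 174 without a library, 144 in thinned counts and 131 to 211 with the other filters. The log2 difference of the miR-133b-3p to miR-133a-3p ratio was -0.0841 to 0.00756 without a library, and the miR-1a-3p share differed by -0.0309 to 0.0103 points, positive without ctrl library 1.

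The labels do not say whether the replicate numbers pair the libraries. The deviations of same-numbered libraries from their group means correlated at 0.19, 0.11 and -0.20. With 3 libraries per group these values cannot settle whether the numbers pair them. With a replicate block 189 miRNAs were called and the 5 muscle miRNAs stayed called, with log2 fold changes of 0.67 to 1.20, while miR-133a-5p was lost (adjusted p = 0.0588) and miR-31-5p and miR-143-3p passed (0.0116 and 0.0330). Of 360 alternative values for the other 26 listed miRNAs, 300 kept their direction and side of the threshold, 36 lost and 20 gained a call. The other 4 turned sign, all uncalled: miR-24-3p (-0.0301 to 0.313 over the left-out libraries, lowest without caNrf2 library 1), miR-155-5p (-0.0182 thinned, and -0.0814 to 0.174, lowest without ctrl library 3) and miR-222-3p (-0.153 to 0.0207, highest without ctrl library 2), where the cause was not tested. At equal depth, in thinned counts, the calls of miR-133a-5p, miR-486a-3p and miR-26a-5p were lost as well as that of miR-499-5p.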
